A study of Mus musculus with 4 samples.

Results

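The genes described here carry the names of the proteins of the cytosolic ribosome, and all but Rps4l code for such a protein or its paralog. They were taken from the deposited table by symbol, as every gene written Rpl or Rps followed by a number and, where present, the letter a, l, x or y, together with Rplp0, Rplp1, Rplp2 and Rpsa. This gave 84 of 23466 genes, or 102 of 31315 transcript records, and for the 11 genes with several records the record with the highest mean over the libraries was used. Of the 84, 43 belong to the large subunit, 31 to the small subunit and 3 to the acidic stalk, and the other 7 are paralogs (Rpl3l, Rpl7l1, Rpl10l, Rpl22l1, Rpl39l, Rps27l and Rps4l). The pattern leaves out 19 further symbols that start with Rpl or Rps, of which 10 are kinase genes of the Rps6k family and 6 carry the pseudogene ending -ps.

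RNA was sequenced from frozen mouse hippocampus at postnatal day 30, in 2 Atp6ap2 conditional mutants (libraries 38 and 39) and 2 wild types (libraries 11 and 73), all on the C57BL/6N strain. The mutants carried Atp6ap2Camk2aCre/0. Camk2a-Cre is a recombinase driven in excitatory forebrain neurons, so glia, vessels and other cells of the tissue keep the allele intact, and the mutants' condition field reads conditional het while their titles read ko. Atp6ap2, an accessory subunit of the vacuolar proton pump, had 2551 and 2522 scaled read equivalents (defined below) in mutants 38 and 39, against 2312 and 2637 in wild types 11 and 73, so the targeted transcript was not lower in these whole-tissue libraries. The labels do not say whether each library is a separate animal, and p-values then reflect only the spread among the libraries, which may be technical.

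The cytosolic ribosome is made of ribosomal RNA and a near equimolar set of proteins, most of them encoded by a single intron-bearing gene. Their messages begin with a run of pyrimidines, the terminal oligopyrimidine motif, through which the mTOR kinase pathway controls their translation as a group. Many of these genes have left processed pseudogenes, intronless copies of the message, elsewhere in mammalian genomes.

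The unit of every level below is the scaled read equivalent, which is the deposited value of a transcript divided by 42. The deposited values read as aligned bases over a scaling factor per library, with 42 bases per read. The libraries held 18328405 and 17543464 read equivalents over genes in mutants 38 and 39, against 18339838 and 10023033 in wild types 11 and 73. A single read was therefore worth 0.844, 0.903, 0.835 and 1.56 scaled read equivalents in mutants 38 and 39 and wild types 11 and 73. All 10 hippocampal neuron markers were present. They summed to 78260 and 89528 in mutants 38 and 39, against 79021 and 93491 in wild types 11 and 73. The summed level of 19 choroid plexus markers was 126663 and 7880 in mutants 38 and 39, against 76018 and 7604 in wild types 11 and 73, so mutant 38 and wild type 11 contained much more of that tissue than the other pair. The 12 myelinating oligodendrocyte markers summed to 112948 and 99918 in the mutants, against 91870 and 66182 in the wild types, and the 7 red blood cell markers to 9120 and 10826, against 8616 and 5936. No marker was at 0 in all libraries. The part of these cell types in the results below was not tested.

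The coding sequences of 2 members are shown first, a widely shared one and a little shared one. Sharing is shown because the members' levels varied with how much of their sequence other genes also hold. The pair does not show that variation, since both were among the 8 highest members per kb of coding sequence. The first bases of each coding sequence, from the start codon and at most 300, are given as DNA from GENCODE M21 transcripts. Capitals mark bases that lie in a stretch of 42 bases, the length of 1 read here, found exactly and on either strand in a transcript of another gene that does not overlap the member. Rpl41, the smallest ribosomal protein, is wholly in capitals, and the first 300 bases of Rpl8, a protein close to the peptidyl transferase centre, have 0.
Rpl41: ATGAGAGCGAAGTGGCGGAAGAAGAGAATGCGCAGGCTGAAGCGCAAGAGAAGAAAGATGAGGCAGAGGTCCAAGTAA
Rpl8: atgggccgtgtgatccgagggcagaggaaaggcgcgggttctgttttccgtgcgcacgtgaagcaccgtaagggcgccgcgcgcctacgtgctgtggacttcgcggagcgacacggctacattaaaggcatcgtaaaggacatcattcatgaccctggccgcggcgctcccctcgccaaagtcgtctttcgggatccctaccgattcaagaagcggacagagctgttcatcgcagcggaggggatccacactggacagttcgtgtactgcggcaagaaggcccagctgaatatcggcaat

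These sequences stand for the range among the 77 members of the large subunit, the small subunit and the stalk. A median of 94.5% of their coding windows of 42 bases was held exactly by another gene, where the median of 16396 protein-coding genes with a level in the table was 0%. More than 50% of the windows were shared in 71 of the 77 members, which is 92.2%, against 5.001% of the protein-coding genes. All windows were shared in 30 members, which is 38.96%, against 1.01%. The number of other genes holding at least a window had a median of 12 over the members.

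The start-site sequences of 5 members show the pyrimidine run of this class of message. Capitals mark the pyrimidines that follow unbroken from the RefSeq transcript start. The base before that start is also a pyrimidine in these 5 members. Each line has 20 bases before the start and 15 from it. They lie in build GRCm38.p6 at chr7:141447631-141447665 (plus strand) for Rplp2, chr2:180257359-180257393 (plus) for Rps21, chr7:4792945-4792979 (plus) for Rpl28, chr3:90213634-90213668 (minus) for Rps27 and chr4:86857353-86857387 (minus) for Rps6. Rps6 codes for the small subunit protein that the S6 kinases phosphorylate.
Rplp2: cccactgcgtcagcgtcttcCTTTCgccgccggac
Rps21: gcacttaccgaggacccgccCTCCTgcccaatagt
Rpl28: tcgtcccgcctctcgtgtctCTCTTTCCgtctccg
Rps27: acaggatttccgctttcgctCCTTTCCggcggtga
Rps6: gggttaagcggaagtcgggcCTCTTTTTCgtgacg

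A run of at least 5 pyrimidines, counted from a C exactly at an annotated start, was found in 13 of the 63 members with a promoter window in the RefSeq table. This is 20.6%, against 3.01% of 27025 genes, and bases before the start were not considered. Allowing the count to begin at a C within 5 bases of the start gave 29 members, which is 46.0%, against 21.2% of all genes. An annotated start can lie some bases away from the one used in hippocampus, and a match is a description of these letters only. The 5 shown were picked from the 13 after their levels were seen, to include high and low genes. Rplp2 and Rps21 were among the 8 highest members per length, Rps27 and Rps6 lay between, and Rpl28 was near zero.

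Measured levels of the 77 members spread over orders of magnitude. Expressed per kb of coding sequence and averaged over the 4 libraries, levels ran from 9.20 scaled read equivalents per kb for Rps29 to 18378 for Rplp1, with a median of 697. The highest 8 included Rplp1 (18378), Rpl41 (17308), Rps3 (6688), Rplp2 (5220), Rpl13a (4963), Rpl8 (4428) and Rps21 (4203). Rplp1 and Rplp2 form the acidic stalk that recruits elongation factors, and Rps3 lines the messenger entry channel. The level of Rpl41 per length rests on a coding sequence of 75 bases.

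Near neighbours in this order changed places between libraries, and Rpl41 was above Rplp1 in wild type 11. Rplp1 had 15160 and 17486 per kb of coding sequence in the mutants, against 15475 and 25392 in the wild types, and Rpl41 had 14232 and 17108, against 18363 and 19528, so these neighbours overlap. Rps3, at 6535 and 7542 in the mutants and 6812 and 5865 in the wild types, lay below both in every library. Rplp2 had 4235 and 5191 in the mutants and 4974 and 6480 in the wild types, which overlaps Rpl13a at 4703 and 5097 in the mutants and 5161 and 4890 in the wild types. Per kb of whole transcript, Rpl4 and Rps9 took the places of Rps3 and Rplp2 among the highest 8, and the lowest 8 were the same genes. At the bottom no order among genes of a few reads can be read: Rps29 had 8.14 and 0 per kb of coding sequence in the mutants, against 10.5 and 18.1 in the wild types, and Rps23 had 4.22 and 17.8, against 13.0 and 2.60.

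Measured levels were lower among members with more shared coding sequence. The 12 members with under 60% of their coding windows shared had a median of 3698 per kb and reached 6688 (Rps3), and none of them was near zero. The 20 members with 60% to under 90% shared ranged from 77.2 (Rps10) to 18378 (Rplp1), with a median of 1517. None of the 20 was near zero, and the 8 near-zero core members all lay among the more widely shared genes. The 15 with 90% to under 100% ranged from 13.0 (Rpl24) to 2936 (Rps3a1), with a median of 350. The 30 with 100% shared ranged from 9.20 (Rps29) to 17308 (Rpl41), with a median of 73.4, and 16 of them were under 100 per kb while 5 were over 1000. Across the 77 genes the Spearman correlation of level with shared percent was -0.68 and the Pearson correlation with log2 level was -0.56, as a description over genes measured in the same 4 libraries. With windows over whole transcripts the Spearman correlation was -0.47, and with the number of other genes -0.28.

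**Figure D1:**
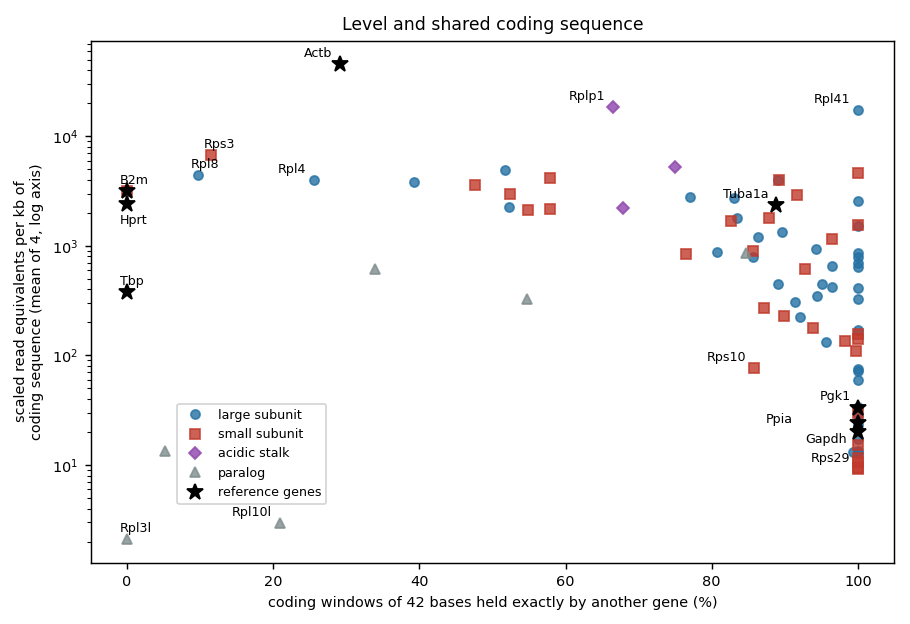
Mean level over the 4 libraries, in scaled read equivalents per kb of coding sequence on a log axis, against the percent of coding windows of 42 bases that another gene holds exactly; each point is a gene and the stars are 8 reference genes. The 12 core members under 60% have a median of 3698 per kb, and members at 100% spread from 9.20 to 17308.

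Genes often used as references were set beside the members, 8 of them reported here. Gapdh, Ppia and Pgk1 had 100% of their coding windows shared and read 20.1, 24.1 and 33.4 per kb of coding sequence, and Tuba1a had 88.7% shared and read 2359.8. Of those less shared, Actb (29.1%) read 45261, while Tbp (0%) read 376. B2m and Hprt, both with 0%, read 3180.4 and 2398. Level did not follow shared sequence in every gene. Rpl41 was wholly shared and among the highest 8, and Rps10 had 85.8% shared and only 77.2 per kb. The paralogs Rpl3l and Rpl39l had 0% and 5.22% shared and were near zero. How the authors' counting treated reads that match several places is not given in the sources used here, so the part of shared sequence in these levels was not tested, and levels of members with shared coding sequence are uncertain.

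Of the 84 members, 11 were near zero, defined as under 10 scaled read equivalents in all 4 libraries, and 26 stayed under 100. Of those 11, 8 are core proteins that every ribosome is thought to carry. Rps29, a zinc-binding small subunit protein, had 1.37 and 0 in the mutants, against 1.77 and 3.05 in the wild types. Rps23, a protein of the decoding centre, had 1.81 and 7.63, against 5.57 and 1.12. Each value of both genes is worth fewer than 10 reads, and in Rps23 the libraries of both groups overlap. Rps13 had 4.58 and 7.46 in the mutants, against 5.15 and 1.97 in the wild types. Rps16 had 4.86 and 4.47, against 7.14 and 3.83, and Rpl36a had 3.32 and 3.27, against 5.93 and 4.39. The large subunit genes Rpl24 and Rpl28 and the ubiquitin fusion gene Rps27a completed the 8. Rpl24 had 8.30 and 5.20 in the mutants, against 4.53 and 6.51 in the wild types. Rpl28 had 3.70 and 4.49, against 3.88 and 9.26, and Rps27a had 7.07 and 8.47, against 5.17 and 7.51. The members nearest the boundary were Rpl28 and Rps27a just inside, with highest values of 9.26 and 8.47, and Rpl27 and Rps12 just outside, with 12.3 and 13.4. Of the 8 near-zero core members, 7 had all coding windows shared and Rpl24 had 99.3%.

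Of the 7 genes named as paralogs, 4 had signal well above 10 scaled read equivalents and 3 were near zero. Rpl22l1, a paralog of Rpl22, had 345 and 311 scaled read equivalents in the mutants, against 351 and 262 in the wild types. Rpl7l1 had 428 and 433, against 512 and 440, Rps27l, a p53-responsive paralog of Rps27, had 98.4 and 88.4, against 97.3 and 46.7, and Rps4l, which GENCODE M21 annotates as a transcribed processed pseudogene without coding sequence, had 221 and 328, against 294 and 384. The near-zero paralogs are known from other tissues. Rpl3l, the paralog of striated muscle, had 1.67 and 6.32 in the mutants, against 2.37 and 0 in the wild types. Rpl10l and Rpl39l, known from male germ cells, had 0 and 0 against 7.52 and 0, and 2.53 and 0.903 against 1.67 and 3.12. No fold is given for Rps29, Rpl10l or Rpl39l, whose values lie at or under 3 reads in nearly every library, 2.53, 2.71, 2.51 and 4.68 in mutants 38 and 39 and wild types 11 and 73.

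**Figure D2:**
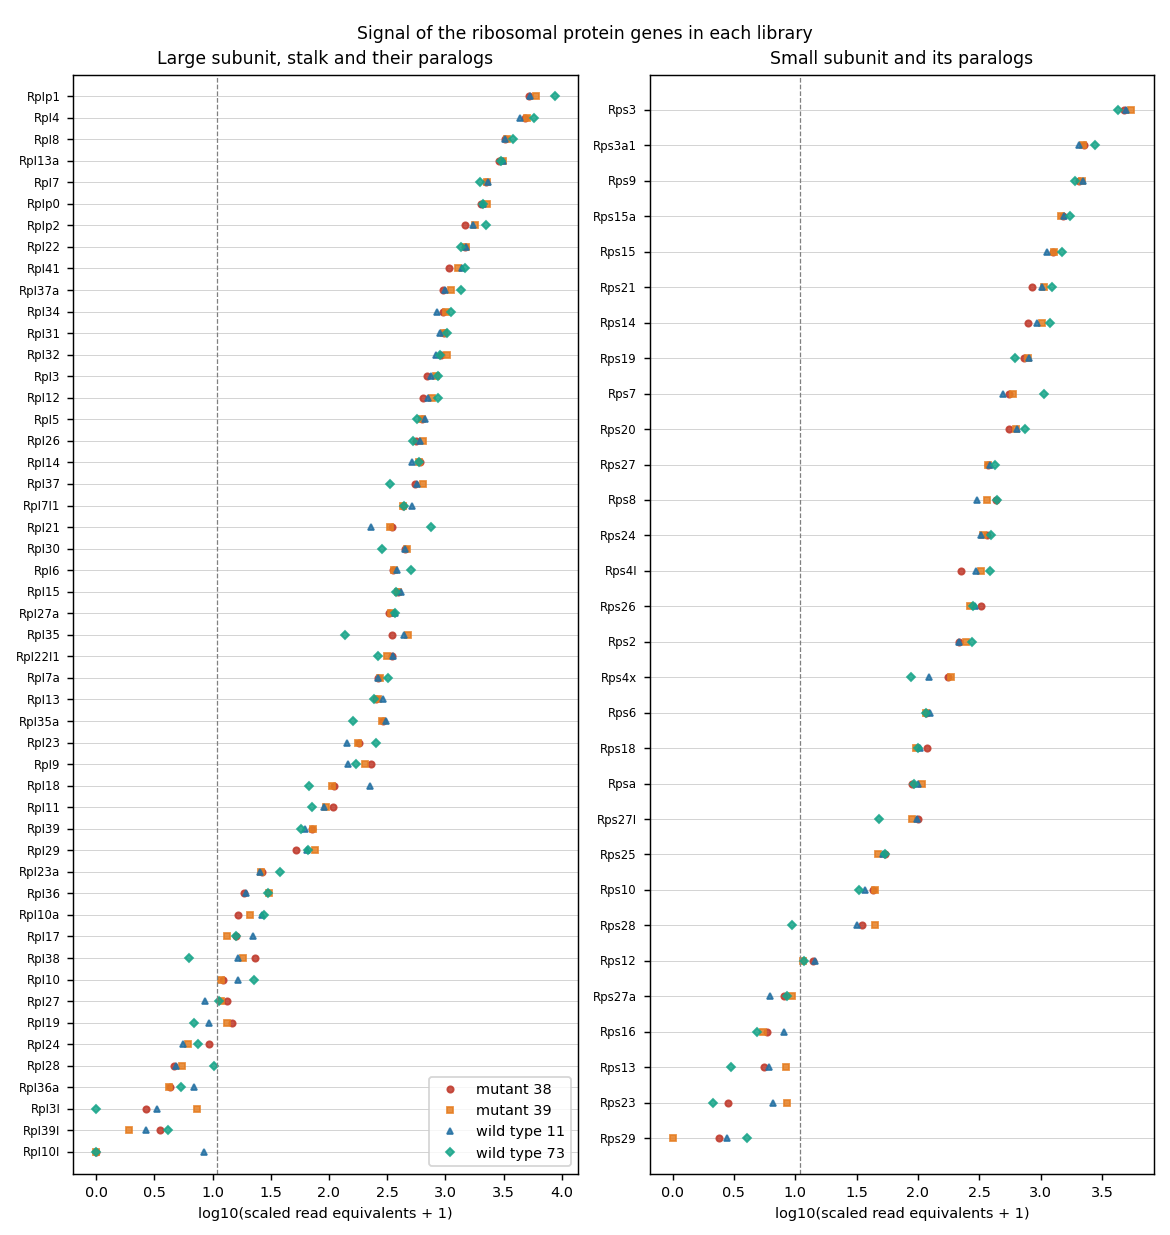
Level of 80 members in each library, as log10(scaled read equivalents + 1), with genes ordered by mean within the 2 panels and the dashed line at 10 scaled read equivalents. The 11 near-zero genes lie left of the line in all libraries, and the points of 1 gene lie close together compared with the range between genes.

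The design sets mutants, in which Atp6ap2 was targeted in excitatory neurons, against wild types. For these genes the comparison shows whether their transcripts differed in whole hippocampus, and not in the targeted neurons alone. As background, the proton pump takes part in the activation of mTOR at the lysosome. The summed level of the members differed between the groups by less than the libraries did within them. It was 59184 and 64421 in mutants 38 and 39, against 60427 and 68038 in wild types 11 and 73, which are 0.383% and 0.407%, against 0.394% and 0.435%, of all signal. The means were 61803 ± 3703 in the mutants and 64232 ± 5382 in the wild types (SD, n = 2 each), a log2 ratio of -0.06 where the pooled SD of a library within its group was 0.11 on the log2 scale. The groups overlap, with mutant 39 above wild type 11. In whole tissue, fewer cells of a type and less RNA per cell cannot be told apart.

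The sum is weighted to a few genes, since the 10 highest members held a mean of 52.8% of it and Rplp1 alone 9.89%. Large subunit genes had a log2 ratio of summed levels of -0.02, small subunit genes -0.01 and paralogs -0.08. The stalk genes had -0.24, from sums of 8646 and 10034 in the mutants, against 9088 and 13029 in the wild types. In the stalk sum wild type 73 was above both mutants and wild type 11 lay between them. Rplp1 had 5185 and 5980 in the mutants, against 5292 and 8684 in the wild types, for a log2 fold change of -0.28 ± 0.22 (SE), and without wild type 73 it was 0.073. Rplp2 had 1461 and 1791, against 1716 and 2236, and Rplp0, the stalk's anchor, had 2000 and 2263, against 2079 and 2109. With Rplp1 and Rpl4 left out, the log2 ratio of the summed levels was -0.02.

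Gene by gene, 83 of the 84 members passed the filter of 1 scaled read equivalent in at least 2 libraries, and Rpl10l did not. In the limma fit over 18127 genes none of the 83 passed an adjusted p of 0.05, where 0.00552% of all genes did. The lowest adjusted p of a member was 0.989. At an unadjusted p below 0.05 there were 2 higher members, Rps4x and Rpl9, and 0 lower, together 2.41% of members against 3.94% of all genes (2.18% higher and 1.75% lower). These counts depended on the fit: without wild type 11, which leaves 1 wild-type library, 10 higher and 12 lower of the 83 members had such a p, where 1894 of 17822 genes did. With a choroid plexus covariate it was 7 higher and 5 lower, where 1360 of 18127 genes did. The median log2 fold change of the members was -0.02, against 0.01 over all genes tested. There were 40 positive and 43 negative values, 72 lay within 0.5 of 0, and for 55 members the 95% interval lay within 1 of 0 on the log2 scale. Both mutants lay above both wild types in 11 members, which is 13.3%, against 16.8% of all genes, and below both in 12, which is 14.5%, against 16.5%. Groups that did not overlap were thus 27.7% of members, against 33.3% of all genes.

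On the higher side, Rps4x, the X-linked small subunit gene, had the smallest p. It had 173 and 183 scaled read equivalents in the mutants, against 123 and 86.3 in the wild types, so the groups did not overlap. This is a log2 difference of 0.78 ± 0.22 (SE; 95% interval 0.25 to 1.31), with an unadjusted limma p of 0.0102, which became 0.989 on adjustment over all genes. The authors' deposited table gives it 0.0202, and it was the single record of the 102 under 0.05, where 544 of all 31315 records were. After adjustment over all records of the authors' deposited table, 0 member records and 61 of all records were under 0.05. Rps4x had 93.9% of its coding windows shared with other genes.

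Rpl9, a large subunit protein near the base of the stalk, had 229 and 205 in the mutants, against 144 and 170 in the wild types, again without overlap. Its log2 fold change was 0.47 ± 0.18 (SE; unadjusted limma p of 0.0323), and the authors' deposited table gives a p of 0.0884. All its coding windows were shared. The next higher genes by p did not reach 0.05. Rps28, a gene of human Diamond-Blackfan anaemia, had 33.7 and 43.8, against 31.1 and 8.37, and Rpl38, whose loss in mice alters the axial skeleton, had 22.2 and 17.2, against 15.5 and 5.28. In both the wild types were farther apart than mutant 38 was from wild type 11. Rpl19 had 13.8 and 12.2, against 8.25 and 5.99, Rpl37 had 543 and 642, against 563 and 333, Rpl30 had 448 and 470, against 446 and 282, and Rpl32 had 915 and 1039, against 823 and 895. The fold change of Rpl32 was 0.18 ± 0.12 (SE) on the log2 scale, and the gap between the groups was smaller than the distance between the wild types.

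On the lower side, Rpl41 had the smallest p. It had 1067 and 1283 in the mutants, against 1377 and 1465 in the wild types, a log2 fold change of -0.28 ± 0.12 (SE; unadjusted limma p of 0.0545), and the authors' deposited table gives a p of 0.0692. The mutants were both below the wild types, with a gap of less than the distance between the mutants. Rps20 had 550 and 623 in the mutants, against 643 and 738 in the wild types, and Rpl6 had 353 and 362, against 382 and 501. In both genes the mutants lay below the wild types, and wild type 73 was the highest library. Rps21 had 851 and 1063, against 1032 and 1240, and overlapped between groups, as did Rplp2. Rpl10, which joins the large subunit late in its maturation, had 11.3 and 10.9, against 15.4 and 21.5, and Rpl10a, the protein of the mobile stalk at the exit side, had 15.7 and 20.1, against 25.4 and 26.5.

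**Figure D3:**
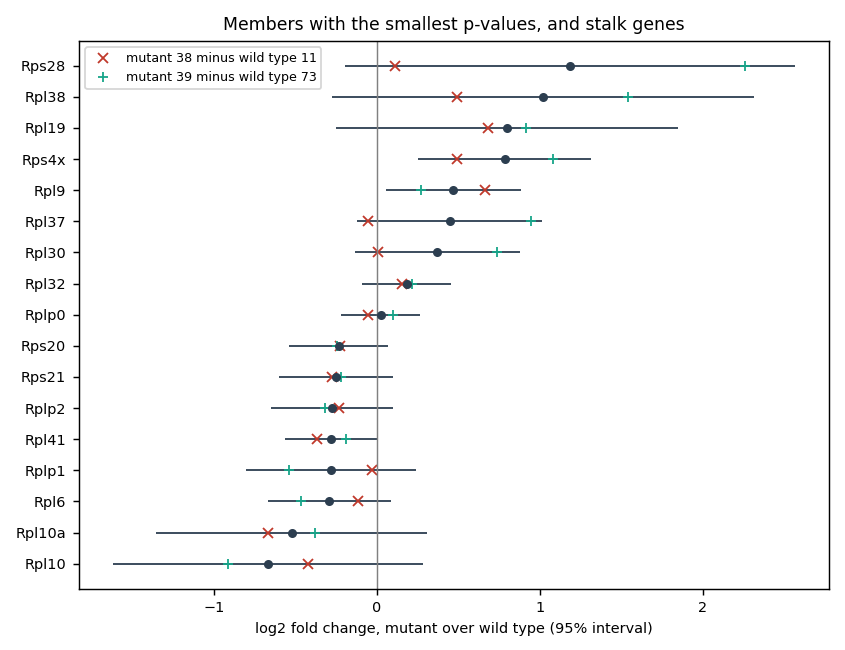
Log2 fold change of mutants over wild types with its 95% limma interval (dot and bar) for the 8 higher and 7 of the 8 lower members with the smallest p-values and the stalk genes Rplp0 and Rplp1; crosses and plus signs are single pairs of libraries with like choroid plexus content, mutant 38 minus wild type 11 and mutant 39 minus wild type 73. Only the intervals of Rps4x and Rpl9 lie off 0, and for Rps28, Rpl38 and Rpl37 the pair with wild type 73 lies much higher than the other.

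Pairing libraries of like choroid plexus content left the median of the members near 0. Between mutant 38 and wild type 11 their median log2 difference was -0.05, and between mutant 39 and wild type 73 it was -0.02, against 0.0070 and -0.0043 over all genes. Over the 56 members with a mean of at least 100 the medians were -0.058 and -0.072, against 0.0035 and -0.0036 over genes of that level. Single members could turn sign between the pairs, as Rpl21 did with 0.59 and -1.19 and Rpl35 with -0.33 and 1.81. Rps4x had 0.49 and 1.08 in these pairs and Rpl9 had 0.66 and 0.27. When the mean log2 level of the choroid plexus markers entered as a second term, the lowest adjusted limma p of a member was 0.164. In that fit 0 members passed, where 87 of 18127 genes did. With 4 libraries, the second term leaves little from which to estimate the spread.

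Rpl5 and Rpl11 form, with a small ribosomal RNA, the particle that can bind Mdm2 and so stabilise p53. Rpl5 had 629 and 625 scaled read equivalents in the mutants, against 662 and 570 in the wild types, a log2 fold change of 0.03 ± 0.12 (SE). Rpl11 had 108 and 93.2, against 89.7 and 70.6, a log2 fold change of 0.33 ± 0.23 (SE). The mutants lay above the wild types in Rpl11 by less than the wild types lay apart, and they lay between the wild types in Rpl5. Among highly read members, Rplp0 had a narrow 95% interval of -0.22 to 0.27 on the log2 scale, and Rpl13a had 2864 and 3104 in the mutants, against 3143 and 2978 in the wild types.

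What varied among the members was the wild-type pair. Over the 56 members with a mean of at least 100, the median absolute log2 difference was 0.10 between the mutants and 0.28 between the wild types, against 0.12 and 0.16 over 11674 genes of the same level. The wild types were farther apart than the mutants in 44 of the 56, which is 78.6%, against 57.6% of those genes. Both mutants lay between the wild types in 23 members, which is 41.1%, against 18.5% of genes, and both wild types lay between the mutants in 4, which is 7.14%, against 13.2%. Wild type 73, the library with the fewest reads, was the highest of the 4 in 28 members and the lowest in 18, together 82.1% against 63.4% of genes.

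The largest of these differences exceeded 1 on the log2 scale in 0 of the 56 members between the mutants and in 4 between the wild types. Of the 11674 genes, 163 did between the mutants and 107 between the wild types. Rpl21 had 346 and 331 in mutants 38 and 39, against 229 and 755 in wild types 11 and 73, a difference of 1.72 for wild type 73 minus wild type 11. Rps7 had 555 and 594, against 488 and 1073, a difference of 1.13. Rpl18 had 110 and 105, against 225 and 66.8, a difference of -1.74, and Rpl35 had 347 and 477, against 437 and 135, a difference of -1.68. In Rpl21, Rps7 and Rpl18 the mutants lie close together, between the wild types. Rpl35 and Rpl18 read lower in wild type 73 than in wild type 11, while Rpl21 and Rps7 read higher. Over the 56 members the difference between the wild types had a Spearman correlation of 0.10 with GC content and 0.04 with transcript length, and over the 55 with a coding sequence 0.08 with the shared percent, each as a description. In wild type 73 the level of Rpl21 rests on 484 read equivalents before scaling, and other sources of the spread were not tested.

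**Figure D4:**
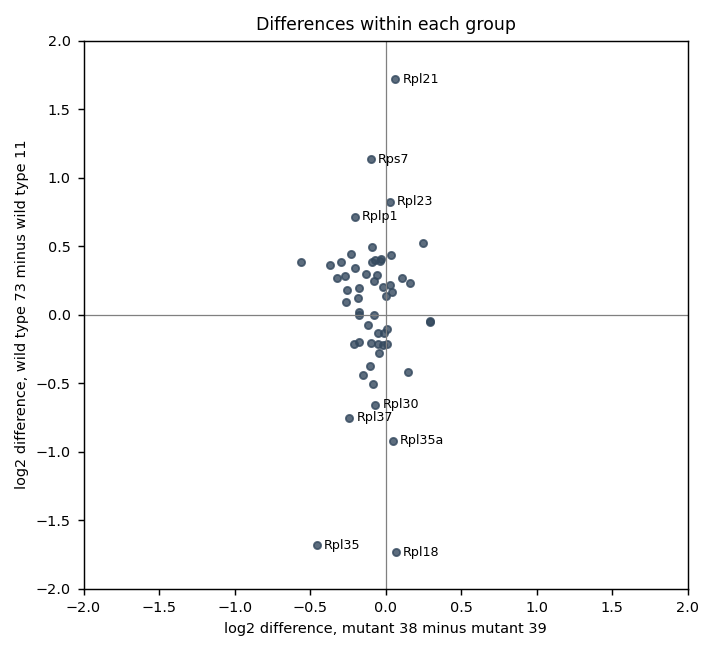
Log2 difference of wild type 73 minus wild type 11 (vertical) against mutant 38 minus mutant 39 (horizontal) for the 56 members with a mean of at least 100 scaled read equivalents, each point a gene. Points stretch vertically from -1.74 (Rpl18) to 1.72 (Rpl21) and horizontally by at most 0.56.

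The fold changes of Rpl21 and Rpl35 changed sign with the wild type that was left out. Without wild type 11 the wild-type arm is 1 library, assumed to vary as the mutants do, so the errors rest on the mutant pair. In that fit the log2 fold change was -1.16 ± 0.15 for Rpl21 and 1.58 ± 0.22 for Rpl35 (SE). With all libraries their log2 fold changes were -0.30 ± 0.48 and 0.74 ± 0.49 (SE), and without wild type 73 they were 0.56 and -0.10, the opposite sign.

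Transcripts of the wider translation apparatus also stayed near 0, and none passed adjustment. Fau makes a ribosomal protein as a fusion with a ubiquitin-like protein, and Gnb2l1 codes for the scaffold RACK1 on the small subunit. Gnb2l1 had 2757 and 3083 in the mutants, against 3083 and 3618 in the wild types. Fau had 21.9 and 28.6, against 21.2 and 22.4. Of 17 other genes whose messages carry the pyrimidine motif, 0 had an unadjusted limma p below 0.05, where 3.94% of all genes did. Their median log2 fold change was 0.00. Of 13 elongation and termination factors 0 did, with a median of -0.01, and of 36 initiation factors 1 did, Eif3m, with 391 and 425 in the mutants, against 344 and 300 in the wild types. Of 23 genes of the mTOR pathway and its control of these messages, 0 did, with a median of -0.01. Both mutants lay below both wild types in 6 of the 23, which is 26.1%, against 16.5% of all genes. They lay above both in 1, which is 4.35%, against 16.8%. Akt1s1, an inhibitory partner of mTOR, had the smallest p among the 23, with 462 and 498, against 540 and 653. In lists of this length, a count of 0 or 1 at an unadjusted p below 0.05 cannot be told from the share of all genes.

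Among genes that build ribosomes, mutant values below the wild types were more frequent than values above them. Of 78 ribosome biogenesis genes, both mutants lay below both wild types in 26, which is 33.3%, against 16.5% of all genes, and above both in 5, which is 6.41%, against 16.8%. The differences were small, with a median log2 fold change of -0.04. Of the 78 genes, 2 had an unadjusted p below 0.05, both lower, where 714 of 18127 genes did, 318 of them lower. Bysl, a small subunit assembly factor, had 384 and 411 in the mutants, against 496 and 499 in the wild types, a log2 fold change of -0.32 ± 0.12 (SE). Imp4, of the nucleolar processing complex, had 250 and 211, against 301 and 297, or -0.38 ± 0.15. Of 20 genes of RNA polymerase I and its factors, both mutants lay below both wild types in 7, which is 35.0%, against 16.5% of all genes. They lay above both in 1, which is 5%, against 16.8%. Of the 20, 3 had an unadjusted p below 0.05, all lower, against 1.75% of all genes lower at such a p. Polr1d, a subunit shared by polymerases I and III, had 226 and 228, against 296 and 298, or -0.39 ± 0.14 (SE). The selectivity factor gene Taf1c had 179 and 182, against 223 and 268, and Polr2h, a subunit common to the polymerases, had 109 and 106, against 145 and 146. All these genes had a limma adjusted p of 0.989.

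The 76 mitochondrial ribosomal protein genes, which make a different ribosome, had a median log2 fold change of -0.06. Of the 76, 1 had an unadjusted limma p below 0.05, Mrpl51, lower, where 3.94% of all genes had such a p. Both mutants lay below both wild types in 13 of them, which is 17.1%, against 16.5% of all genes. They lay above both in 6, which is 7.89%, against 16.8%. The genes whose human counterparts are mutated in Diamond-Blackfan anaemia, 18 of the members and all of them tested, had 0 with an unadjusted p below 0.05 and a median of 0.05. The 13 chaperones and importers of ribosomal proteins had 0 and a median of 0.04. In lists as short as these, a count of 0 cannot be told from the 3.94% of all genes.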

How the data were processed

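The authors deposited a table with 1 signal value per RefSeq transcript and library, and a p-value column headed DEseq, per the file headers. Ribosomal RNA was depleted and the strand marked with dUTP, per the labels' protocols. GSNAP, DESeq2 and build mm9 are named without versions or roles, per the submitters' processing notes. The sources used here do not give the read counter, its strand setting or its treatment of reads matching several places. That the deposited signal is aligned bases divided by a factor per library was inferred from the values: in every library 100% were whole multiples of 1 step (tolerance 0.05) and low values piled up at 42 steps, so values were divided by 42. No count model was run, because these are not counts.

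Genes with at least 1 scaled read equivalent in 2 libraries (18127) were tested on log2(value + 1), with limma 3.58.1 in R 4.3.3, a variance trend, group as the only term, a two-sided test and Benjamini-Hochberg adjustment over all genes. Fold changes on this scale understate those of low genes. Simulated data with known changes were used to test the fit. An exact permutation test of 2 against 2 libraries cannot give a p under 0.333. Python 3.11.15, pandas 2.3.3 and matplotlib 3.10.9 were used otherwise.

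Coding lengths and shared 42-base windows came from GENCODE M21 transcripts on GRCm38, matched by RefSeq accession for 82 members and by symbol for 2; genes overlapping a member in the genome were not counted as other genes. The members and lists were chosen with earlier results of these data known, and the window measure was chosen after levels were seen. Text genes are the 8 higher and 8 lower members with the smallest p, the 8 highest and lowest per coding kb, near-zero, stalk, Rpl5, Rpl11 and paralog genes, and up to 3 genes of each other list. Rpl4, Rpl18, Rpl21, Rpl27, Rpl35, Rps6, Rps7, Rps10, Rps12, Rps27, Rps3a1 and Rps9 were added after their values were seen. Results of some genes that the rule names are not reported here.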

Additional observations from a re-analysis of the deposited data

How the results depend on the processing

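The median log2 fold change of the members stayed between -0.024 and -0.017 under pseudocounts of 0.5 and 5, no filter, a filter on a mean of 10, values left in bases, median-of-ratios scaling, no variance trend, summed transcripts per gene and a choroid plexus covariate, and no member passed in any of them. The log2 ratio of the summed level was -0.06, with -0.057 under median-of-ratios scaling and -0.039 with summed transcripts, and the covariate was not run for it. Leaving out each library in turn gave medians of -0.043 to 0.0055, ratios of -0.14 to 0.032 and 0 to 2 members that passed, so the direction of both turned. The number of all genes that passed was 1, with 0 without the variance trend (938 at an unadjusted p below 0.05), 87 with the covariate, and 1 to 37 with a library left out. Near-zero members numbered 11, against 0 at a boundary of 1 and 26 at 100.

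Signs of log2 fold changes turned only with a library left out, and the lowest and highest values of those 4 fits follow. Without a mutant library at both ends, Rplp0 had -0.066 and 0.11, Rpl13a -0.095 and 0.021, and Rpl24 -0.055 and 0.53. With a wild type left out at both ends, Rplp1 had -0.64 and 0.073, Rpl5 -0.078 and 0.14, Rpl8 -0.20 and 0.042, Rps16 -0.52 and 0.23, Rpl28 -1.01 and 0.059, and Rps23 -0.42 and 1.22. Likewise Rpl22l1 had -0.098 and 0.32, Rps27l -0.061 and 0.98, Rpl21 -1.16 and 0.56, and Rpl35 -0.10 and 1.58. The cause was not tested. No paired analysis was possible because the labels give no pairing, the replicate numbers 38, 39, 11 and 73 not being shared between the groups, and the pairs by choroid plexus content were formed from the data. Depth limits members of a few reads, and wild type 73 most.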

Other observations

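Ribosome biogenesis genes were counted again with each library left out in turn. Between 31 and 42 of the 78 genes had the mutant libraries below the wild-type libraries, which is 39.7% to 53.8%, against 30.8% to 36.8% of all genes. For the 20 genes of RNA polymerase I and its factors it was 8 to 11, which is 40% to 55%, against the same shares of all genes. The mutant libraries lay above in 3 to 6 of the 20, which is 15% to 30%, against 31.3% to 36.6% of all genes. Without wild type 73 the share above was 30%, near the 32.9% of all genes. Of the 76 mitochondrial ribosomal protein genes 16 to 49 lay below, on both sides of the share of all genes. It was 21.1% without mutant 38, against 31.5% of all genes, and 64.5% without wild type 11, against 36.8%. Their median log2 fold change ran from -0.14 without wild type 11 to 0.03 without wild type 73. Since these fits share libraries, the ranges are a description, and the lists were chosen with earlier results known.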
